A study of Mus musculus with 34 samples.

Results

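The genes described here encode classical major histocompatibility complex (MHC) class I molecules and the machinery that supplies them with peptide: H2-K1, H2-D1, B2m, Tap1, Tap2, Tapbp, Psmb8, Psmb9, Psmb10 and Nlrc5. They were chosen by name, as the rows of the deposited table of estimated counts whose Entrez Gene identifier maps to one of these symbols. All 10 were found among the 24475 genes of the table, and all 10 passed the filter on low counts in vivo and in culture.

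The study profiled monocytes and macrophages of C57/Bl6 mice by bulk RNA sequencing in 34 libraries of 9 groups. From tumors of LLC cells, a Lewis lung carcinoma line, came TuMon2 monocytes, labelled Ly6C+ CD88+ Sca1- (n = 4), and macrophages (n = 4); from tumors of MC38 cells, a colon carcinoma line, came TuMon1 monocytes, labelled Ly6C+ CD88+ Sca1+ (n = 4), and macrophages (n = 4). Ly6C+ monocytes of the spleen were taken from mice with each tumor (n = 4 each). Bone marrow monocytes were cultured untreated (Ly6C+, n = 4), with supernatant of MC38 cells (labelled Ly6C+ CD88+ Sca1+, n = 3) or with supernatant of LLC cells (labelled Ly6C+ CD88+ Sca1-, n = 3). No genetic change is named for any group, and the labels give no ages. TuMon1 came only from MC38 tumors and TuMon2 only from LLC tumors, so the monocyte subset and the tumor line cannot be told apart in the tumor comparison. In culture the labelled phenotype likewise differs with the supernatant, so phenotype and supernatant cannot be told apart there. The tumor field of the MC38 libraries runs through consecutive numbers while their titles all say MC38, and the titles were followed. The labels do not say whether libraries of 1 group come from different animals or dishes; the p-values reflect the spread between these libraries, which may be technical.

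Class I molecules are made of a heavy chain, here H2-K1 or H2-D1, and the invariant light chain beta-2 microglobulin, the product of B2m. They show peptides of the cell's own proteins to CD8+ T cells. The immunoproteasome, in which the products of Psmb8, Psmb9 and Psmb10 take the place of the constitutive catalytic subunits, cuts proteins into such peptides. The transporter made by Tap1 and Tap2 carries the peptides into the endoplasmic reticulum, and tapasin, the product of Tapbp, holds the empty class I molecule at the transporter while peptide is loaded. Nlrc5 is the class I transactivator: it reaches their promoters through a complex of RFX, CREB or ATF, and NF-Y proteins on the X and Y boxes. Interferons raise the transcription of the whole pathway in part through IRF1.

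Of the 10 genes, 7 lie on chromosome 17, in or beside the mouse MHC, in the GRCm38 build. H2-K1 spans chr17:33996012-34000619 and H2-D1 chr17:35263094-35267497, with Tapbp, Psmb9, Tap1, Psmb8 and Tap2 between or before them. B2m lies on chromosome 2, and Psmb10 and Nlrc5 lie on chromosome 8. The deposited table gives 1 value per gene and library, not values of single exons.

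The promoters are shown because the text below sets heavy chains, light chain and transporter side by side, and these genes carry the letters through which the transactivator complex is known to act. The stretches are RefSeq sequence (GRCm38.p6), written 5′ to 3′ on the gene's strand (for the shared stretch on the strand of Tap1), and a promoter window of 300 bases was found for 8 of the 10 genes. Capitals mark the motifs searched: in H2-K1 and H2-D1, from left to right, the kB palindrome, TGACG (the core of the X2 box or CRE) and ATTGG (the Y box, CCAAT on the other strand), and in B2m the IRF or ISRE core, a kB core that overlaps its own match on the other strand, TGACG and ATTGG. The H2-K1 stretch is chr17:34000349-34000473 (minus strand), the H2-D1 stretch chr17:35262908-35263032 (plus), the B2m stretch chr2:122147533-122147648 (plus), and the stretch between the starts of Psmb9 and Tap1 chr17:34187331-34187555 (plus).
H2-K1: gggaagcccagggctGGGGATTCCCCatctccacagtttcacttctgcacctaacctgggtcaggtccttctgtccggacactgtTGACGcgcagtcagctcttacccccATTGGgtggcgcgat
H2-D1: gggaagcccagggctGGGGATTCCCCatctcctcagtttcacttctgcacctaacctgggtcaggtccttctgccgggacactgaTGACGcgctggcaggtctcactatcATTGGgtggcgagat
B2m: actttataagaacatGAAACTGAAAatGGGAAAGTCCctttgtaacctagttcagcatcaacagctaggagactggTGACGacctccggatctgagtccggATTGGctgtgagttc
Tap1-Psmb9: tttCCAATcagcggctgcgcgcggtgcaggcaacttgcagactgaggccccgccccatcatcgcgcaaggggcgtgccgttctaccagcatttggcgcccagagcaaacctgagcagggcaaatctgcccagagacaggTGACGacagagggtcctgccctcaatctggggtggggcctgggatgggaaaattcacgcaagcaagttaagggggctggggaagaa

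In H2-K1, H2-D1 and B2m, TGACG was followed by ATTGG 25 bases downstream, first base to first base. The same spacing occurred in the windows of 27 of 27025 genes (0.0999%), among them H2-M3. It was noticed after the sequences had been read and is a description. The kB palindrome was found in the windows of 9 of 27025 genes, and 3 of the 9 were H2-K1, H2-D1 and H2-Q6. Tap1 and Psmb9 start 225 bases apart and are transcribed away from each other, so that they share 1 TGACG and 1 Y box. TGACG alone was present in 23.0% and ATTGG alone in 41.1% of all genes. The motifs were searched as fixed patterns, so variants of them would be missed, in H2-K1 and H2-D1 as elsewhere. Among the 8 members with a window, the IRF or ISRE core in the form searched was matched in B2m alone (3.99% of all genes). The kB core was likewise matched in B2m alone (5.21%), and TTCNNNGAA, the GAS motif, in Psmb8 alone (9.55%). A window without a match may thus still hold a variant site. Both strands were searched throughout, and the windows of Psmb10 and, apart from 2 copies of ATTGG, of Tapbp held no match.

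The libraries held 13047724 to 26966603 estimated counts over 13475 to 16908 detected genes. Some libraries carried transcripts foreign to monocytes. Markers of fat cells (Adipoq, Car3, Plin1 and Fabp4) summed to 4484 to 8375 CPM (TMM-scaled counts-per-million) in MC38 spleen monocytes 1, 2 and 3 against 20.3 CPM in replicate 4; markers of fibroblasts and endothelium reached 2713 CPM in MC38 supernatant replicate 3; and epithelial markers reached 46.1 CPM in control culture replicate 2. Results resting on these libraries are given with and without them. The sort markers followed the labels for Sca1: Ly6a, which encodes it, ran from 1696 to 1806 CPM in TuMon1 and from 29.5 to 39.6 CPM in TuMon2, and from 1344 to 1628 CPM with MC38 supernatant and 11.2 to 11.9 CPM with LLC supernatant. Ly6c2, by contrast, was at 12.2 to 14.9 CPM with LLC supernatant, although those cells are labelled Ly6C+, against 1520 to 1887 CPM in the control cultures. Scaling was done separately in vivo and in culture, and a gene is called changed where the adjusted p of edgeR's quasi-likelihood test, over all genes of the fit, was under 0.05.

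Heavy chains, light chain, transporter, tapasin, immunoproteasome subunits and transactivator were all higher in MC38 TuMon1 than in LLC TuMon2. All 10 genes rose, by log2 differences from 0.76 (Tap2) to 1.67 (H2-K1), with a median of 1.05, and the libraries of the groups did not overlap for any of the 10. Over all 13200 genes tested, 48.9% were called in either direction, 26.8% were called higher and 27.9% did not overlap and were higher, and the median difference was 0.06. In bulk samples, fewer cells of a type and less RNA per cell cannot be told apart.

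H2-K1 stood at 3912, 4026, 3779 and 4038 CPM in the 4 TuMon1 libraries and at 1253, 1174, 1302 and 1239 CPM in the 4 TuMon2 libraries. The TuMon1 libraries lay close together, each about as far above every TuMon2 library. The log2 difference was 1.67 ± 0.09 (SE), a 3.17-fold higher level (adjusted p = 7.84e-13, edgeR). H2-D1, the other heavy chain, held 4128, 4085, 3896 and 4191 CPM in TuMon1 and 1926, 1871, 2101 and 2035 CPM in TuMon2. The groups were again apart, with a smaller step than for H2-K1: 1.04 ± 0.08 on the log2 scale, or 2.05-fold (adjusted p = 3.27e-10, edgeR). B2m, the light chain that both heavy chains need to reach the surface, was at 5516, 5920, 5324 and 6067 CPM in TuMon1 and 2375, 2260, 2354 and 2314 CPM in TuMon2. Its step of 1.29 ± 0.07 (2.45-fold, adjusted p = 9.26e-13, edgeR) lay between those of the heavy chains.

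The coding sequences of H2-K1 and H2-D1 are 91.5% identical over 1077 aligned bases, with an identical run of 91 bases, and both had deposited values that were not whole numbers in 34 of 34 libraries, as did Tap1, Tap2 and Tapbp. How reads were divided between such similar genes is thus an estimate in the deposited counts. With the rows of all H2 class I genes summed to 1, the same comparison gave 1.45 ± 0.09 (adjusted p = 1.76e-12, edgeR). B2m, Psmb8, Psmb9, Psmb10 and Nlrc5 had whole counts throughout.

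Tap1, the first subunit of the peptide transporter, was at 685, 641, 692 and 722 CPM in TuMon1 and 329, 302, 334 and 341 CPM in TuMon2. Every TuMon1 library exceeded every TuMon2 library, by 1.07 ± 0.11 on the log2 scale (2.10-fold, adjusted p = 3.22e-08, edgeR). Tap2, the second subunit, ran from 249 to 280 CPM in TuMon1 and from 140 to 170 CPM in TuMon2, a step of 0.76 ± 0.09. Tapbp, which encodes tapasin, ran from 741 to 830 CPM and from 396 to 455 CPM, a step of 0.88 ± 0.08.

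Psmb9 had the widest difference of the 3 immunoproteasome subunits. It held 155, 152, 162 and 163 CPM in TuMon1 and 62.0, 51.4, 60.2 and 67.7 CPM in TuMon2, a log2 difference of 1.39 ± 0.14 (2.62-fold, adjusted p = 1.58e-08, edgeR). Psmb10 was at 227 to 281 CPM and 96.5 to 122 CPM (1.17 ± 0.13), and Psmb8 at 455 to 537 CPM and 222 to 276 CPM (0.93 ± 0.12). Nlrc5, the transactivator, was at 397, 421, 440 and 412 CPM in TuMon1 and 210, 225, 210 and 248 CPM in TuMon2. Its groups did not overlap, and its step of 0.90 ± 0.11 (1.87-fold, adjusted p = 3.13e-07, edgeR) was smaller than those of H2-K1 and B2m.

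**Figure D1:**
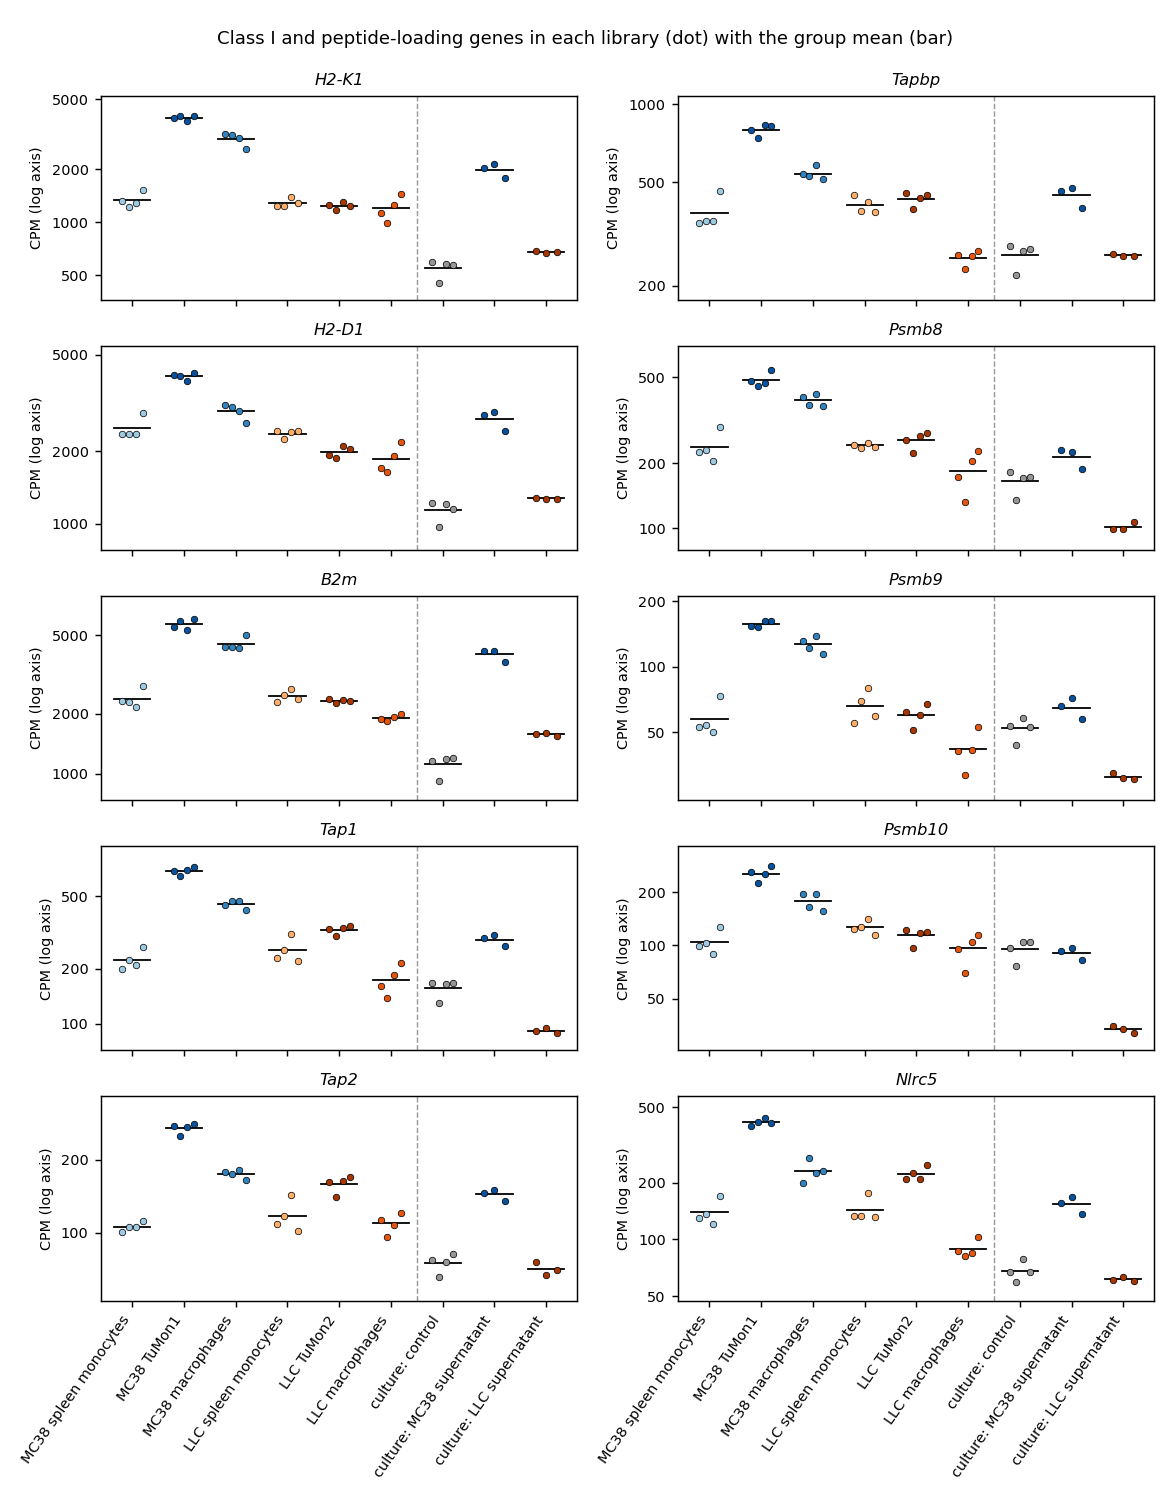
Level of each gene in every library, in CPM on a log axis, for the 6 in vivo groups and, right of the dashed line, the 3 culture groups, which were scaled separately. Dots are libraries and bars are group means; MC38 TuMon1 is the highest in vivo group in all 10 panels, and in culture MC38 supernatant is highest in all panels but that of Psmb10.

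Other markers moved with this comparison. The 5 monocyte markers (Ly6c2, Ccr2, Csf1r, Lyz2 and Cd14) summed to 8574 to 10315 CPM in TuMon1 and 14662 to 16527 CPM in TuMon2, and the 5 macrophage markers (Adgre1, C1qa, C1qb, Mertk and Mrc1) to 3207 to 3828 and 1307 to 1503 CPM. The members of these lists did not all go one way: Ly6c2 was higher in TuMon1, at 2705 to 3010 against 892 to 959 CPM, and Mrc1 lower, at 193 to 246 against 516 to 804 CPM. Lyz2 was the largest part of the monocyte sum, with a mean of 2852 CPM in TuMon1 and 8528 CPM in TuMon2. Epithelial markers summed to 5.60 to 7.83 CPM in TuMon1 and 41.3 to 65.6 CPM in TuMon2, nearly all of it Cdh1 (39.9 to 63.3 CPM in TuMon2), with Epcam at most at 0.378 CPM. Markers of T and NK cells (5 of 6 listed genes were in the table) summed to 2.81 to 3.73 CPM and 0.88 to 1.89 CPM, with Cd3e at 0 in every TuMon2 library. The dendritic cell list ran from 11.1 to 14.7 CPM and from 3.18 to 5.22 CPM. Of that list Ccr7 differed most (means of 7.87 and 1.02 CPM), while Flt3 had a slightly lower mean in TuMon1 (1.64 against 1.77 CPM). The neutrophil list ran from 22.5 to 28.7 and from 68.0 to 101 CPM (mostly Mmp8). The fibroblast and endothelial list ran from 104 to 114 and from 42.1 to 67.3 CPM (mostly Pecam1), while fat cell and B cell markers overlapped. Their part in the differences was not tested.

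Against spleen monocytes of mice with the same tumor, TuMon1 and TuMon2 differed. In TuMon1 all 10 genes rose, by 0.72 (H2-D1) to 1.61 (Tap1) on the log2 scale with a median of 1.32. Over all genes, 70.1% were called, 33.5% higher and 36.6% lower. In TuMon2 only 4 of the 10 were called: Nlrc5, Tap2 and Tap1 rose and H2-D1 fell, with a median over the 10 of 0.01. There 62.6% of all genes were called, 28.6% higher and 34% lower, so the share of members called in TuMon2 was below that of all genes.

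H2-K1 stood at 1323, 1217, 1288 and 1517 CPM in MC38 spleen monocytes and at 1233, 1243, 1395 and 1283 CPM in LLC spleen monocytes. The spleen groups overlapped each other and the TuMon2 libraries, and all lay far below TuMon1. Its change from spleen to tumor was 1.56 ± 0.09 in the mice with MC38 tumors (adjusted p = 2.25e-13, edgeR) and -0.05 ± 0.09 in those with LLC tumors (adjusted p = 0.637, edgeR). H2-D1 had 2348, 2347, 2348 and 2886 CPM in MC38 spleen and 2413, 2236, 2388 and 2417 CPM in LLC spleen. All 4 LLC spleen libraries were above all 4 TuMon2 libraries, and H2-D1 fell by 0.25 ± 0.08 in TuMon2 (adjusted p = 0.0103, edgeR) but rose by 0.72 ± 0.08 in TuMon1.

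B2m, with 2314, 2298, 2168 and 2776 CPM in MC38 spleen and 2300, 2501, 2683 and 2383 CPM in LLC spleen, rose by 1.26 ± 0.07 in TuMon1 and had a difference of -0.08 ± 0.07 in TuMon2 (adjusted p = 0.322, edgeR). Upper quartile scaling, which moved the LLC spleen comparison of B2m to -0.18, called it lower (adjusted p = 0.0234, edgeR).

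The transporter genes and Nlrc5 were higher in both tumor monocyte subsets than in spleen. Nlrc5 had 130, 136, 121 and 171 CPM in MC38 spleen and 133, 133, 176 and 132 CPM in LLC spleen. TuMon2 libraries were all above LLC spleen libraries, by 0.64 ± 0.11 (1.55-fold, adjusted p = 2.16e-05, edgeR), and TuMon1 libraries exceeded MC38 spleen by 1.58 ± 0.11 (adjusted p = 5.57e-12, edgeR). Tap2 rose by 0.43 ± 0.09 in TuMon2 and by 1.35 ± 0.09 in TuMon1. Tap1 rose by 0.36 ± 0.11 and by 1.61 ± 0.11; for both genes, the libraries of TuMon2 and LLC spleen overlapped. Tapbp and the 3 immunoproteasome genes differed between TuMon2 and LLC spleen by 0.08, 0.08, -0.14 and -0.16 (Tapbp, Psmb8, Psmb9 and Psmb10), with adjusted p from 0.294 to 0.596 (edgeR).

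The test of the difference itself, the change from spleen in MC38 minus that in LLC, was called higher for all 10 genes, with values from 0.91 (Tap2) to 1.61 (H2-K1) and adjusted p from 6.06e-10 to 9.78e-05 (edgeR). Over all genes 42.9% were called, 23.8% higher and 19.1% lower. Psmb9 had 1.59 ± 0.19 and Psmb10 1.44 ± 0.18, the next largest after H2-K1, and Nlrc5 had 0.95 ± 0.16. In spleen alone, 0 of the 10 were called between mice with MC38 and with LLC tumors by edgeR and 0 by DESeq2. Unadjusted p was under 0.05 for 1 of them, Psmb10, at -0.28 ± 0.13, and 28.4% of all genes were called, 14.4% higher and 14% lower.

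The fat-marker libraries bear on these values. Without MC38 spleen monocytes 1, 2 and 3, which leaves 1 library whose spread is taken from the other groups, TuMon1 remained higher than MC38 spleen for all 10, by 0.49 (H2-D1) to 1.38 (Tap1), and the difference between tumors for all 10, by 0.64 (Psmb8) to 1.42 (H2-K1). In spleen alone, 0 of the 10 and 22 of all genes were then called, against 3755 with all libraries. Without replicate 4 instead, 4 of the 10 were lower in MC38 than in LLC spleen: Tap1 by 0.28, Tapbp by 0.23, Psmb9 by 0.35 and Psmb10 by 0.40 on the log2 scale (adjusted p from 0.0103 to 0.0413, edgeR). Neutrophil markers summed to 152 to 208 CPM in MC38 spleen replicates 1, 2 and 3, 670 CPM in replicate 4, 808 to 1249 CPM in LLC spleen and 22.5 to 101 CPM in the tumor monocytes. Fibroblast and endothelial markers summed to 353 to 611 CPM in the same 3 replicates and 8.54 CPM in replicate 4, so replicate 4 stood apart from them in these lists as well. Macrophage markers were at 247 to 412 CPM in both spleen groups and dendritic cell markers at 30.4 to 56.2 CPM, against 3.18 to 14.7 CPM in the tumor monocytes. Most of the dendritic cell sum of LLC spleen libraries was Flt3, with a mean of 46.8 CPM. Xcr1, of the same list, went the other way, with a lower mean in LLC spleen than in TuMon2. Whether these cell types contribute was not tested.

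**Figure D2:**
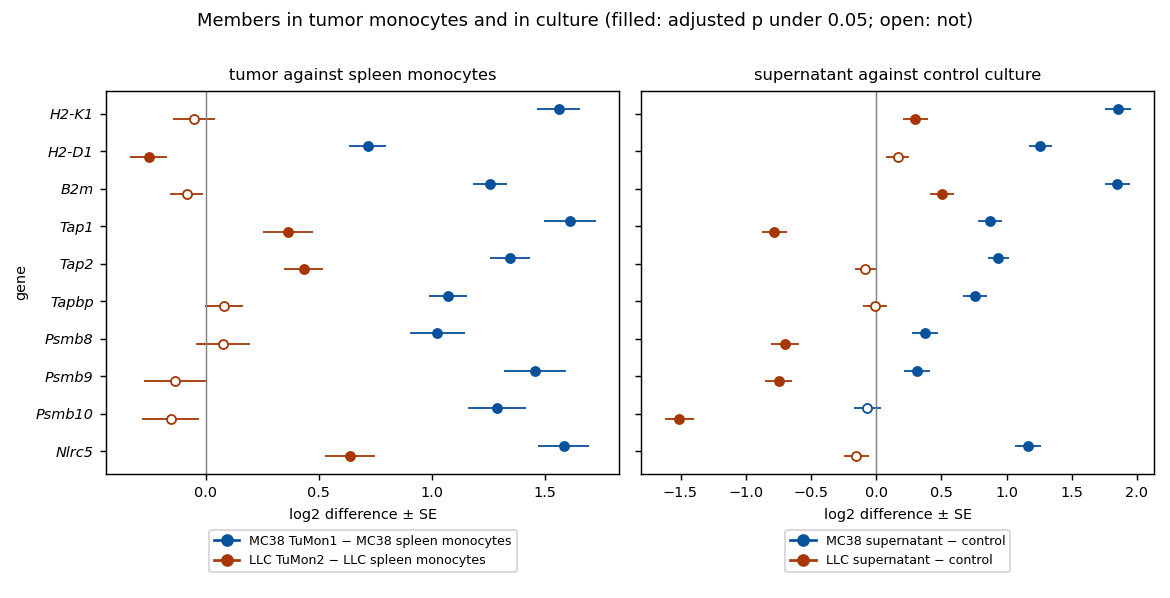
The log2 difference of each gene with its standard error, for tumor against spleen monocytes (left) and supernatant against control culture (right), MC38 in blue and LLC in brown. Filled points have an adjusted p under 0.05; in both panels the blue point lies to the right of the brown point for all 10 genes.

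Tumor macrophages had less transcript of most of these genes than monocytes of the same tumor. In MC38 tumors 9 of the 10 fell, by 0.31 (Psmb8) to 0.86 (Nlrc5) on the log2 scale, and the tenth, Psmb9, differed by -0.31 ± 0.13 (adjusted p = 0.0504, edgeR). All 10 had macrophage libraries wholly below the TuMon1 libraries. Of all genes 52.7% were called in this comparison, 24.8% higher and 27.9% lower, and 27.4% did not overlap and were lower. In LLC tumors 7 of the 10 fell, against 55.5% of all genes called, 29.2% higher and 26.3% lower. Neutrophil markers summed to 4.66 to 8.54 CPM in MC38 and 4.77 to 9.63 CPM in LLC macrophages, below the monocytes of both tumors. Dendritic cell markers ran from 13 to 21.7 CPM in MC38 macrophages, overlapping TuMon1, and from 6.43 to 13.2 CPM in LLC macrophages, above TuMon2. Ccr7 differed most between LLC macrophages and TuMon2 (means of 4.27 and 1.02 CPM), while Xcr1 had a slightly lower mean in the macrophages (1.60 against 1.73 CPM). The part of these marker transcripts in the falls was not tested.

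Nlrc5 had the widest fall of the 10 in both tumors. It had 199, 269, 224 and 230 CPM in MC38 macrophages and 86.4, 81.4, 84.7 and 103 CPM in LLC macrophages. MC38 macrophages thus overlapped LLC TuMon2 monocytes, while LLC macrophages were below every other group in vivo. The fall was 0.86 ± 0.11 in MC38 (adjusted p = 5.35e-07, edgeR) and 1.33 ± 0.11 in LLC tumors (adjusted p = 6.87e-10, edgeR). Of the transporter and loading genes, Tap1 decreased by 0.60 ± 0.11 in MC38 and by 0.90 ± 0.11 in LLC tumors, Tap2 by 0.62 ± 0.09 and 0.54 ± 0.09, and Tapbp by 0.56 ± 0.08 and 0.75 ± 0.08.

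The heavy chains had smaller differences than Nlrc5 and the transporter genes. H2-K1 had 3196, 3134, 3021 and 2598 CPM in MC38 macrophages and 1125, 989, 1251 and 1455 CPM in LLC macrophages. The MC38 macrophages were all below TuMon1 and the LLC macrophages spanned the TuMon2 values, so that H2-K1 fell by 0.40 ± 0.09 in MC38 (adjusted p = 0.000755, edgeR) and differed by -0.04 ± 0.09 in LLC tumors (adjusted p = 0.711, edgeR). H2-D1 fell by 0.48 ± 0.08 in MC38 and differed by -0.10 ± 0.08 in LLC tumors. B2m fell in both, by 0.34 ± 0.07 and 0.28 ± 0.07. Under upper quartile scaling, which moves the median of all genes by 0.11 and 0.15 in these comparisons, B2m differed by -0.14 in LLC and Psmb8 by -0.20 in MC38 tumors, and neither was called (adjusted p = 0.0866 and 0.151, edgeR).

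The call of Psmb8 in MC38 macrophages also rested on single libraries: without TuMon1 replicate 1 or 4, or without macrophage replicate 2 or 4, the adjusted p was 0.0566 to 0.159 (edgeR). In LLC tumors Psmb8 fell by 0.47 ± 0.12 and Psmb9 by 0.53 ± 0.14, with overlapping libraries, and Psmb10 differed by -0.24 ± 0.13 (adjusted p = 0.108, edgeR). The fall was compared between the tumors by the interaction, for which 14.5% of all genes were called, 6.25% higher and 8.27% lower. H2-D1 (-0.39 ± 0.12, adjusted p = 0.0264, edgeR) and Nlrc5 (0.47 ± 0.16, adjusted p = 0.0432, edgeR) passed, in opposite directions. H2-K1 (-0.36 ± 0.13, adjusted p = 0.0683, edgeR) missed the threshold, but was called lower under upper quartile scaling, with only the libraries of the groups compared in the fit, without the foreign-transcript libraries and without LLC macrophage replicate 2 (adjusted p from 0.018 to 0.0489, edgeR). In the first 3 of these fits, 3 of the 10 were called, 1 higher and 2 lower. Leaving out 1 of the 16 libraries at a time gave between 0 and 2 calls among the 10; Nlrc5 lost its call in 14 of these fits and H2-D1 in 10.

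Compared with each other, the macrophages repeated the order of the monocytes. All 10 genes were higher in MC38 than in LLC macrophages, by 0.65 (H2-D1) to 1.61 (Psmb9) with a median of 1.16, and no gene's libraries overlapped. Of all genes, 45.3% were called, 22.4% higher and 22.9% lower, and 22.4% did not overlap and were higher. B2m had 4379, 4335, 4301 and 4983 CPM in MC38 and 1881, 1836, 1931 and 2005 CPM in LLC macrophages, and Psmb9 132, 122, 139 and 115 CPM and 40.8, 31.8, 41.6 and 52.9 CPM. The macrophage marker sum was 6580 to 6915 CPM in MC38 and 4209 to 4812 CPM in LLC macrophages, the monocyte sum 3005 to 3621 and 11008 to 11404 CPM, and the epithelial sum 5.5 to 8.08 and 91.6 to 144 CPM. Ly6c2 and Mrc1 again went against their lists, with Ly6c2 at a mean of 69.5 CPM in MC38 and 17.9 CPM in LLC macrophages and Mrc1 at 319 and 805 CPM. The epithelial sum was almost all Cdh1 (a mean of 104 CPM in LLC macrophages), with Epcam at 0 in every LLC macrophage library. The part of such transcripts in the comparison was not tested.

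In culture, bone marrow monocytes given MC38 supernatant had more transcript of all 10 genes than those given LLC supernatant. The differences ran from 0.77 (Tapbp) to 1.65 (Tap1) on the log2 scale, with a median of 1.21, and no gene's libraries overlapped. Over the 12603 genes tested, 40.1% were called, 21.6% higher and 18.5% lower, 32.5% did not overlap and were higher, and the median was 0.05. Both supernatant comparisons with control share the control libraries. Against control, MC38 supernatant raised 9 of the 10 (67.9% of all genes called, 35.4% higher and 32.5% lower), and LLC supernatant raised 2 and lowered 4 (68.4% called, 32.3% higher and 36.1% lower).

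H2-K1 stood at 2046, 2132 and 1783 CPM with MC38 supernatant, 687, 666 and 675 CPM with LLC supernatant, and 591, 451, 582 and 569 CPM in control. The 3 groups did not overlap and were ordered MC38, LLC, control. MC38 supernatant exceeded LLC supernatant by 1.56 ± 0.11 (2.94-fold, adjusted p = 2.98e-06, edgeR) and control by 1.86 ± 0.10 (3.62-fold, adjusted p = 5.40e-08, edgeR). LLC supernatant exceeded control by 0.30 ± 0.10 (adjusted p = 0.0193, edgeR), a call that was lost without any 1 of the LLC supernatant libraries (adjusted p from 0.0577 to 0.0749, edgeR).

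B2m had the same order, with 4172, 4183 and 3672 CPM with MC38 supernatant, 1590, 1603 and 1545 CPM with LLC supernatant and 1163, 916, 1178 and 1195 CPM in control. It rose by 1.85 ± 0.10 with MC38 and by 0.50 ± 0.10 with LLC supernatant (adjusted p = 4.51e-08 and 0.000805, edgeR). H2-D1 was at 2832, 2909 and 2432 CPM, 1283, 1271 and 1273 CPM, and 1215, 972, 1209 and 1155 CPM in the same order. Its rise with MC38 supernatant was 1.26 ± 0.09, and its difference with LLC supernatant of 0.16 ± 0.09 was not called (adjusted p = 0.129, edgeR), but was called by DESeq2 at 0.21 (adjusted p = 0.0354) and, with only the libraries of these 2 groups in the fit, by edgeR at 0.30 (adjusted p = 0.000737).

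With LLC supernatant the 3 immunoproteasome genes fell, while H2-K1 and B2m rose; with MC38 supernatant Psmb8 and Psmb9 rose, and Psmb10 was not called. Psmb10 had 93.5, 96.8 and 83.1 CPM with MC38 supernatant, 35, 33.8 and 31.7 CPM with LLC supernatant and 96.5, 76.8, 104 and 104 CPM in control. MC38 supernatant overlapped control, and LLC supernatant was far below both. Psmb10 differed by -0.07 ± 0.11 with MC38 supernatant (adjusted p = 0.592, edgeR) and fell by 1.51 ± 0.11 with LLC supernatant (0.35 of control, adjusted p = 6.71e-07, edgeR).

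Psmb9 was at 65.7, 71.7 and 57.5 CPM with MC38 supernatant, 32.4, 30.6 and 30.4 CPM with LLC supernatant and 53.6, 43.8, 58.3 and 52.8 CPM in control. LLC supernatant was lowest, by 0.75 ± 0.10 against control (adjusted p = 9.37e-05, edgeR), while MC38 supernatant overlapped control and was called higher at 0.32 ± 0.10 (adjusted p = 0.0181, edgeR). That call was lost without MC38 supernatant replicate 2 (0.25, adjusted p = 0.101, edgeR). Psmb8 rose by 0.37 ± 0.10 with MC38 and fell by 0.70 ± 0.11 with LLC supernatant.

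Tap1, the gene that shares its promoter with Psmb9, was at 295, 307 and 265 CPM with MC38 supernatant, 90.9, 95.1 and 89.4 CPM with LLC supernatant, and 167, 130, 165 and 168 CPM in control. No groups overlapped. Tap1 rose by 0.87 ± 0.09 with MC38 and fell by 0.78 ± 0.09 with LLC supernatant (adjusted p = 1.11e-05 and 3.20e-05, edgeR). Tap2 rose by 0.94 ± 0.08 and Tapbp by 0.76 ± 0.09 with MC38 supernatant, and with LLC supernatant they differed from control by -0.08 ± 0.08 and -0.01 ± 0.09.

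Nlrc5 had 156, 167 and 136 CPM with MC38 supernatant, 61.3, 63.2 and 60.0 CPM with LLC supernatant and 67.5, 59.2, 78.7 and 67.5 CPM in control. MC38 supernatant was apart from both other groups, which overlapped. Nlrc5 rose by 1.16 ± 0.10 with MC38 supernatant (2.24-fold, adjusted p = 1.65e-06, edgeR) and differed by -0.15 ± 0.10 with LLC supernatant (adjusted p = 0.191, edgeR). Thus with LLC supernatant H2-K1 and B2m were called higher, Tap1 and the 3 immunoproteasome genes lower, and H2-D1, Tap2, Tapbp and Nlrc5 were not called.

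Without the libraries that held foreign transcripts, control 2 and MC38 supernatant 3, all 10 remained higher with MC38 than with LLC supernatant (0.86 to 1.73), and 9 remained higher with MC38 supernatant than in control. The comparison of LLC supernatant with control then gave 9 calls in place of 6: H2-D1 (0.11) was then called higher, and Tap2 (-0.13) and Nlrc5 (-0.20) lower. Control replicate 2 had the lowest level of all 10 genes among the 4 controls. The monocyte marker sum was 6258 to 6983 CPM with MC38 supernatant, 19930 to 20445 CPM with LLC supernatant and 16865 to 20444 CPM in control. Lyz2 was the largest part of that sum (means of 3112, 18509 and 15169 CPM), and 3 of its 5 genes went the other way between the supernatants: Ly6c2 (1311 against 13.9 CPM), Ccr2 (637 against 262 CPM) and Csf1r (1495 against 1136 CPM) were higher with MC38 supernatant. The macrophage sum was 3031 to 3658, 3898 to 3924 and 170 to 201 CPM in the same order, and T and NK cell markers summed to at most 0.815 CPM with either supernatant and to 10.9 to 15.3 CPM in control. That control sum was nearly all Nkg7 (a mean of 13.4 CPM), with Cd3e at 0 in every control library. Dendritic cell markers summed to 3.94 to 5.47 CPM with MC38 supernatant, 0.641 to 0.871 CPM with LLC supernatant and 23.8 to 31.6 CPM in control. Neutrophil markers summed to 1403 to 1751 CPM with the supernatants and 536 to 716 CPM in control, of which nearly all with the supernatants was Mmp8, while S100a8 and Camp were highest in control. Fabp4, of the fat cell list, was at 23.3 to 30.1 CPM with MC38 and 90.4 to 94.7 CPM with LLC supernatant and at most 0.402 CPM in control. Whether these differences bear on the results was not tested.

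**Figure D3:**
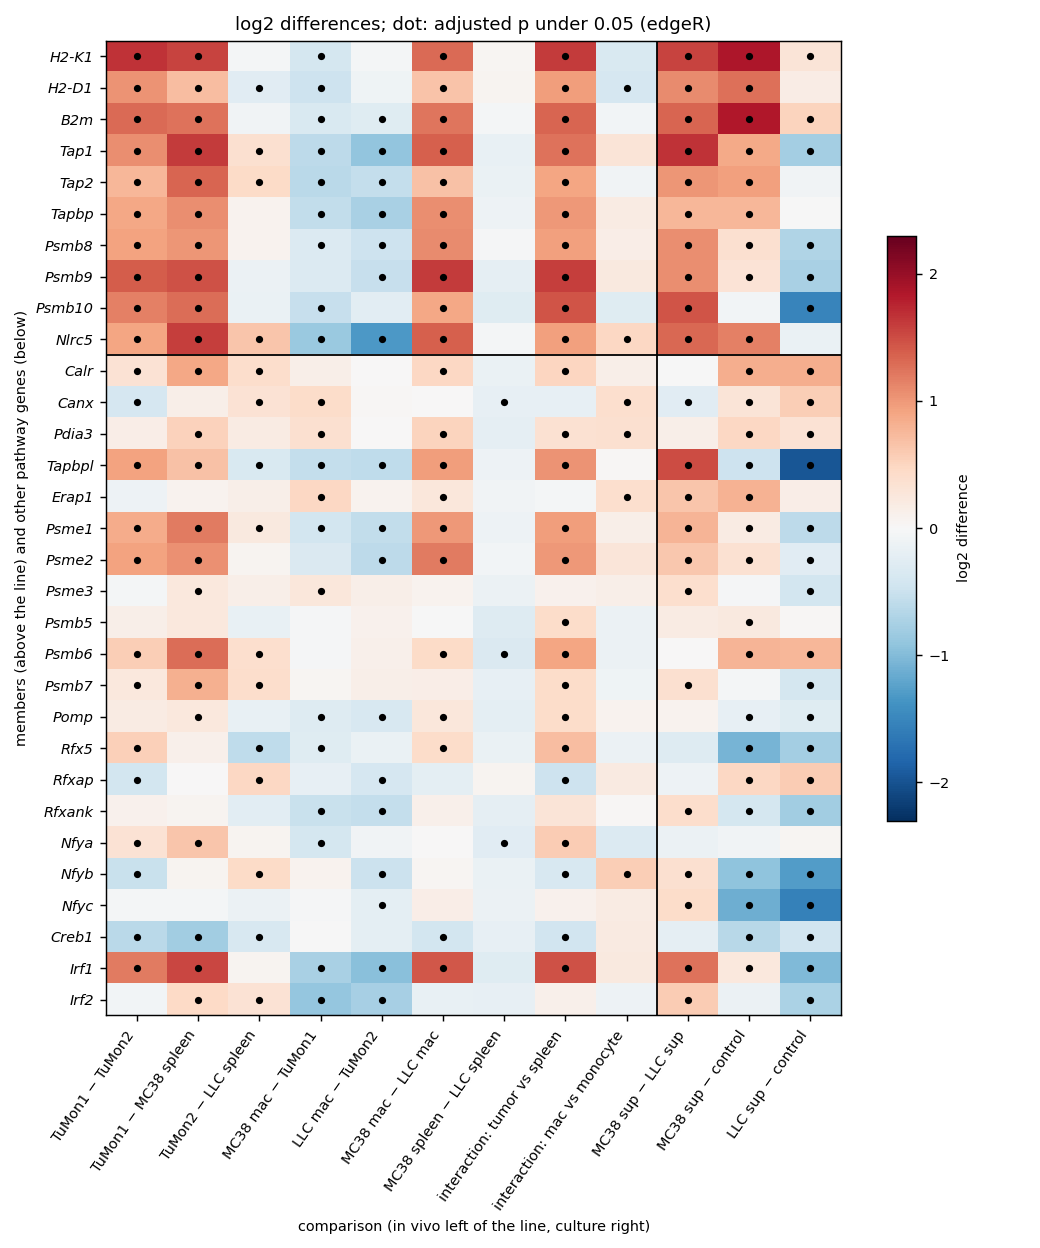
Log2 differences of the 10 members (above the horizontal line) and of 21 other genes of the pathway (below it) in the 12 comparisons, with culture to the right of the vertical line and 2 interactions left of it. A dot marks an adjusted p under 0.05 (edgeR); the members are red throughout in TuMon1 against TuMon2, in MC38 against LLC macrophages and in MC38 against LLC supernatant.

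Each immunoproteasome subunit was also set against the constitutive subunit whose place it takes, within each library, so that scaling between libraries does not enter. Psmb8 replaces Psmb5, Psmb9 replaces Psmb6 and Psmb10 replaces Psmb7. Coding sequences of the pairs are 63.3% to 66.8% identical, with no identical run above 18 bases. Deposited values of Psmb5 and of Psmb7 were not whole numbers in 24 libraries each and are thus estimates, while Psmb6 had whole counts. On the log2 scale, the mean ratio of Psmb8 to Psmb5 was 2.85 in TuMon1, 2.58 in MC38 macrophages, 2.06 in MC38 spleen monocytes, 2.05 in TuMon2, 1.8 in LLC spleen monocytes and 1.46 in LLC macrophages. In culture it was 1.42 with MC38 supernatant, 1.26 in control and 0.55 with LLC supernatant.

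Psmb10 to Psmb7 was 1.01 on the same scale in TuMon1, 0.65 and 0.54 in LLC and MC38 spleen monocytes, 0.44 in MC38 macrophages, 0.09 in TuMon2 and -0.30 in LLC macrophages, and in culture -0.10 in control, -0.11 with MC38 and -1.18 with LLC supernatant. Psmb9 to Psmb6 was 0.05 in TuMon1 and -0.77 in TuMon2. Here spleen monocytes, at -0.13 (MC38) and -0.26 (LLC), were close to TuMon1: the difference of TuMon1 from MC38 spleen was 0.18 on the log2 scale, with overlapping libraries (exact permutation p = 0.314, 2-sided). As count ratios, MC38 spleen replicates 1, 2 and 3, which held fat markers, were at 0.80, 0.83 and 0.89. Replicate 4 was at 1.196, above every TuMon1 library (0.959 to 1.190), so the direction of this difference depended on the fat-marker libraries. Psmb6 itself, the constitutive partner, was higher by 1.29 in TuMon1 than in MC38 spleen. Macrophages were at -0.24 (MC38) and -1.41 (LLC). In culture, Psmb9 to Psmb6 was highest in control at -0.87, with -1.33 for MC38 and -2.37 for LLC supernatant.

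The 3 ratios were tested in 10 comparisons, 30 exact permutation tests in all. TuMon1 exceeded TuMon2 in each of the 3 ratios, by 0.80 for Psmb8, 0.82 for Psmb9 and 0.93 for Psmb10 on the log2 scale, in every library. In 15 of the 30 tests the exact 2-sided p was 0.0286, the smallest that 4 against 4 libraries can give, and after Benjamini-Hochberg adjustment these stood at 0.0571, so none of the 30 passed 0.05. The cultures, with a smallest exact p of 0.0571 (3 against 4) or 0.1 (3 against 3), could not reach 0.05 at all. Since the adjustment was over all 30 tests, these among them, the lack of calls was in part set by the design. LLC supernatant was below control in all 3 ratios in every library, by differences of -0.72, -1.5 and -1.09 on the log2 scale. For MC38 supernatant the differences were 0.16, -0.47 and -0.02, with libraries apart for Psmb9 to Psmb6 alone.

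**Figure D4:**
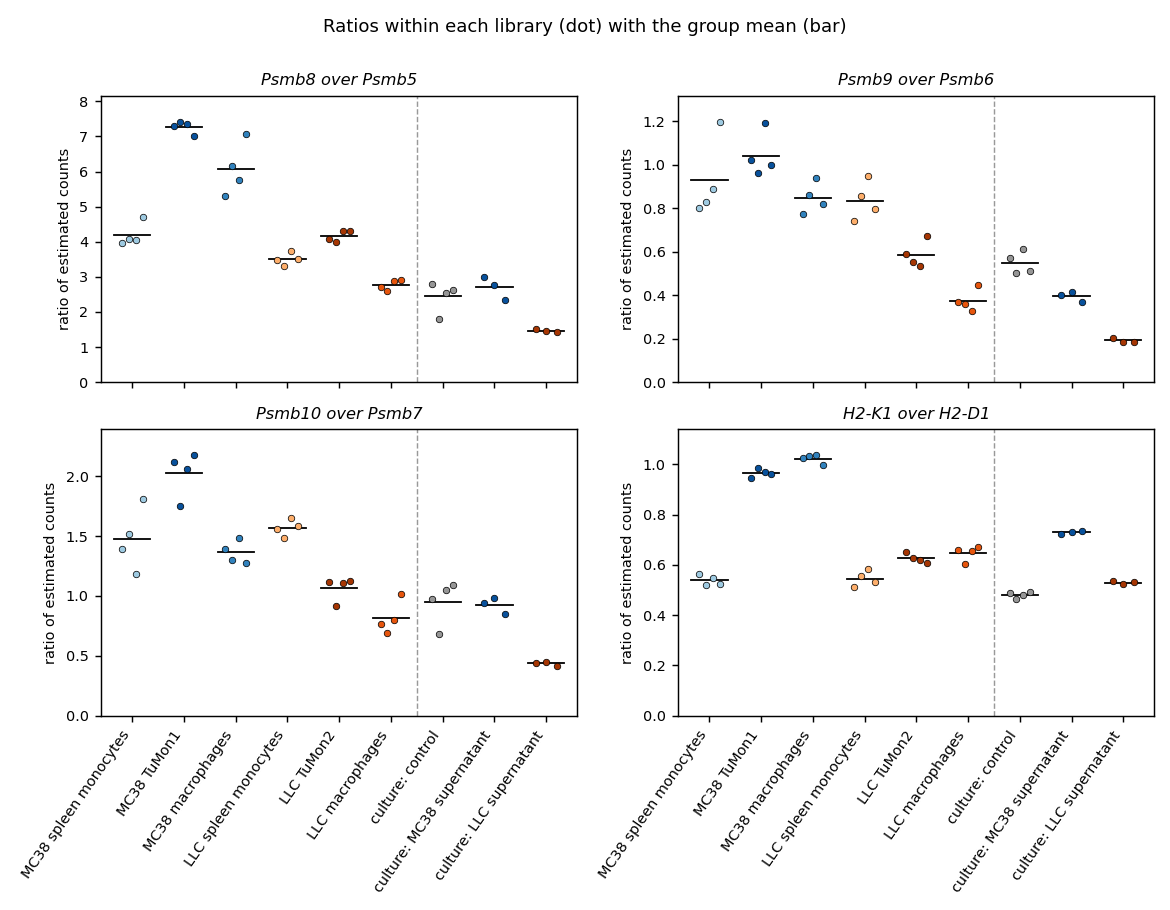
Ratio of estimated counts within each library (linear axes from 0) for each immunoproteasome subunit over its constitutive counterpart and for H2-K1 over H2-D1. Dots are libraries, bars are group means and the dashed line separates in vivo from culture; TuMon1 has the highest mean of the 3 immunoproteasome ratios, and MC38 tumor groups lie near 1 for H2-K1 over H2-D1.

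The heavy chains were not in a fixed proportion. The ratio of H2-K1 to H2-D1 counts was 0.54 ± 0.02 (SD, n = 4) in MC38 spleen and 0.55 ± 0.03 in LLC spleen monocytes, 0.63 ± 0.02 in TuMon2 and 0.65 ± 0.03 in LLC macrophages, and 0.97 ± 0.02 in TuMon1 and 1.02 ± 0.02 in MC38 macrophages. In culture it was 0.48 ± 0.01 (SD, n = 4) in control, 0.53 ± 0.01 (SD, n = 3) with LLC and 0.73 ± 0.01 with MC38 supernatant. No library of an MC38 tumor group overlapped any other group. This ratio was chosen after its values were seen and was not tested.

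Together, H2-K1, H2-D1 and B2m took 1.23% ± 0.05 (SD, n = 4) of all counts in TuMon1, 1.11% ± 0.03 in MC38 macrophages, 0.70% ± 0.04 and 0.64% ± 0.02 in MC38 and LLC spleen monocytes, 0.52% ± 0.05 in LLC macrophages and 0.47% ± 0.01 in TuMon2. In culture they took 0.85% ± 0.06 (SD, n = 3) with MC38 supernatant, 0.33% ± 0.00 with LLC supernatant and 0.30% ± 0.03 (n = 4) in control. These shares are of the deposited counts, without TMM scaling, whose factors ran from 0.845 to 1.18 in vivo. LLC macrophages (0.462% to 0.581%) overlapped TuMon2 (0.453% to 0.486%) in these shares and had the higher mean. In TMM-scaled CPM, the means of H2-K1, H2-D1 and B2m were lower in LLC macrophages than in TuMon2. Per kilobase of merged exons, which allows levels of different genes to be compared, B2m was highest in every group. In TuMon1 the level was 6636 CPM per kilobase for B2m, 2380 for H2-K1 and 1939 for H2-D1, then 298 for Psmb8, 275 for Tapbp, 232 for Tap1, 195 for Psmb10, 117 for Psmb9, 78.2 for Tap2 and 51.4 for Nlrc5.

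The order of the groups was much alike across the genes. In vivo, TuMon1 was first for all 10 and MC38 macrophages second for all 10, with the libraries of the 2 groups apart for each gene. MC38 macrophages were also apart from the third group for 7 of the 10; the exceptions were H2-D1, where they overlapped MC38 spleen monocytes, and Tap2 and Nlrc5, where they overlapped TuMon2. Below these, neighbouring groups mostly overlapped. In TMM-scaled CPM, LLC macrophages were last for all but Tap2, for which they overlapped MC38 spleen monocytes at the bottom. They were apart from the group above for B2m, Tapbp and Nlrc5.

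The other pathway genes moved with the members only in part. Of 21 listed, 9 were higher and 4 lower in TuMon1 than in TuMon2 (61.9% called, against 48.9% of all genes), with a median of 0.14. Irf1, a transcription factor of interferon response, ran from 209 to 306 CPM in TuMon2 and from 522 to 753 CPM in TuMon1, a log2 difference of 1.2 ± 0.17. Psme1 and Psme2, the subunits of the interferon-inducible proteasome activator, and Tapbpl, a tapasin relative that edits peptides, rose by 0.85, 0.92 and 0.92. Rfx5, the DNA-binding part of the RFX complex, rose by 0.55 ± 0.11, at 18.1 to 23.8 CPM against 11.7 to 15.7 CPM. Of the constitutive subunits, Psmb6 rose by 0.57 ± 0.09 and Psmb7 by 0.24 ± 0.07, and Psmb5 differed by 0.13 ± 0.11.

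Against the direction of the members, the chaperone gene Canx (calnexin) fell by 0.38 ± 0.07, and Rfxap, Nfyb and Creb1, which encode partners on the X and Y boxes, fell by 0.42 ± 0.13, 0.51 ± 0.08 and 0.62 ± 0.11. Canx ran from 352 to 400 CPM in TuMon1 and from 463 to 512 CPM in TuMon2, Rfxap from 16.1 to 17.8 and 21.7 to 23.3 CPM, Nfyb from 18.3 to 22.7 and 27.9 to 30.4 CPM, and Creb1 from 51.6 to 58.4 and 81.3 to 92.9 CPM. None of the 4 overlapped.

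Of the same 21 genes, 12 were higher and 1 lower in TuMon1 than in MC38 spleen, and 8 higher and 3 lower in TuMon2 than in LLC spleen. These shares, 61.9% and 52.4%, were below those of all genes, 70.1% and 62.6%. In macrophages against monocytes, 4 were higher and 8 lower in MC38 (57.1%, against 52.7% of all genes) and 0 higher and 10 lower in LLC tumors (47.6%, against 55.5%). Between macrophages, 10 were higher and 1 lower in MC38 (52.4%, against 45.3%).

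In culture, 11 of the 21 were higher and 1, Canx, lower with MC38 than with LLC supernatant (57.1%, against 40.1% of all genes). Against control, 10 were higher and 7 lower with MC38 supernatant (81%, against 67.9%), and 5 higher and 13 lower with LLC supernatant (85.7%, against 68.4%). Irf1 was at 98.5 to 111 CPM with MC38 supernatant, 41.7 to 44.4 CPM with LLC supernatant and 75.4 to 94.7 CPM in control, so it rose by 0.24 ± 0.08 and fell by 1.01 ± 0.08. Rfx5 and Nfyb went down with both supernatants, Rfx5 by 1.08 ± 0.18 with MC38 and 0.78 ± 0.17 with LLC supernatant, Nfyb by 0.92 ± 0.08 and 1.29 ± 0.08.

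Across the 34 libraries, the log2 CPM of the members correlated with one another at Pearson's r from 0.729 (B2m with Psmb10) to 0.981 (H2-K1 with B2m). H2-K1 with H2-D1 had 0.963 and Tap1 with Psmb9 0.951. These are descriptions over libraries of 9 groups, scaled together for this purpose only. Among the 14582 genes that passed the filter over the 34 libraries, those outside the pathway with a pattern most like the members' mean were Ifi35 (r = 0.976), Ifi47 (0.973), Gm12250 (0.972), Igtp (0.971), Zbp1 (0.970) and Phf11b (0.968). Their differences between TuMon1 and TuMon2 ran from 1.11 (Ifi35) to 1.53 (Phf11b), and between MC38 and LLC supernatant from 1.93 (Ifi35) to 2.98 (Zbp1). The genes were picked by likeness to the members over these same libraries, so the direction of these differences follows from the choice. Over the 24 in vivo libraries the 6 were Klrk1 (0.987), Xaf1 (0.982), Irgm1 (0.978), H2-T22 (0.975), Tor3a (0.975) and Ifi35 (0.974). Of the pathway list, Psme1 (0.964), Psme2 (0.947) and Irf1 (0.929) followed the members' mean closely over the 34 libraries, and Rfx5 (0.134) and Nfya (0.007) did not. Over the 24 in vivo libraries Rfx5 had 0.462 and Nfya 0.640.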

How the data were processed

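Strand-specific mRNA libraries were made from 100 ng RNA with 14 PCR cycles, per the labels' protocols. The submitters' processing notes name CASAVA 1.8.2 and the GRCm38 (mm10) build. No aligner or counter is named in what was used here. The deposited table holds the authors' expected counts per Entrez gene; 14.6% of values are not whole. They were rounded. Symbols came from RefSeq GRCm38.p6 (24375 of 24475 identifiers matched) and exon lengths from GENCODE M21.

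In vivo (24 libraries, 13200 genes after filterByExpr) and cultured libraries (10, 12603 genes) were fitted separately with edgeR 4.0.16 (R 4.3.3; TMM, quasi-likelihood F-test, robust, 2-sided), with Benjamini-Hochberg adjustment over all genes of the fit at 0.05. Ratios had a pseudocount of 0.5 CPM. The scripts were tested on simulated data. The 10 members, the 21 pathway genes (1 further listed gene is not reported here), the 6 most alike genes by correlation, the marker lists and the motifs were chosen with earlier results of these data known. Alternatives were DESeq2 1.42.0, RLE and upper quartile scaling, no filter, a filter of 5 CPM in 3 libraries, only the groups compared, a replicate block, each library left out, the libraries with foreign transcripts left out, H2 rows summed and a ratio pseudocount of 5 CPM.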

Additional observations from a re-analysis of the deposited data

Results flagged for a closer look

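Among 70 checks (10 genes in 7 groups of 4 libraries), 8 had a library whose gap to its nearest neighbour took more than 0.829 of the group's range, where chance gives about 1 in 20. In control culture replicate 2, H2-K1 was at 451 CPM (569 to 591 in the others), B2m at 916 (1163 to 1195) and Tap1 at 130 (165 to 168); this library also carried epithelial markers. In MC38 spleen monocytes replicate 4, the library without fat markers, H2-D1 was at 2886 CPM (2347 to 2348) and Tapbp at 463 (348 to 355). LLC spleen monocytes had H2-D1 at 2236 CPM in replicate 2 (2388 to 2417) and Nlrc5 at 176 in replicate 3 (132 to 133). B2m was at 4983 CPM in MC38 macrophages replicate 4 (4301 to 4379). Fat cell markers summed to 75.7 CPM in that library and to 1.71 to 12.9 CPM in the other MC38 macrophages. Whether they bear on B2m was not tested.

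The change from spleen to tumor monocytes differed between the tumors for all 10 genes, by 1.61 for H2-K1, 0.97 for H2-D1, 1.34 for B2m, 1.25 for Tap1, 0.91 for Tap2, 0.99 for Tapbp, 0.95 for Psmb8, 1.59 for Psmb9, 1.44 for Psmb10 and 0.95 for Nlrc5 on the log2 scale (edgeR interaction). The change from monocytes to macrophages differed for H2-D1 (-0.39) and Nlrc5 (0.47).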

How the results depend on the processing

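Of 2044 alternative values of single genes, 1984 kept their side of the threshold, 35 lost and 25 gained a call, and 0 reversed a called direction. Values not called in either fit could change sign and still count as kept. B2m in MC38 against LLC spleen did so (-0.05, and 0.18 without the foreign-transcript libraries). All 10 genes remained called under every alternative in TuMon1 against TuMon2, TuMon1 against MC38 spleen, MC38 against LLC macrophages, the difference between tumors from spleen, and MC38 against LLC supernatant. Leaving out single libraries gave 0 to 4 calls for MC38 against LLC spleen and 0 to 2 for the interaction of macrophages against monocytes, which reached 3 under upper quartile scaling, with only the groups compared and without the foreign-transcript libraries; over all alternatives the counts were 4 to 5 for TuMon2 against LLC spleen, 8 to 10 and 6 to 8 for macrophages against monocytes in MC38 and LLC tumors, 8 to 9 for MC38 and 5 to 9 for LLC supernatant against control. Psmb9 in MC38 macrophages was called under RLE scaling, no filter, DESeq2, the replicate block, only the groups compared and without the foreign-transcript libraries (adjusted p from 0.00229 to 0.0412). Psmb10 in LLC macrophages was called under RLE scaling, no filter, DESeq2 and without LLC macrophage replicate 4. The cause was not tested.

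The labels do not say whether a replicate number marks a shared animal or day, and the numbers were not treated as pairs: over 37 same-numbered pairs, deviations correlated at -0.363 to 0.273, 5 pairs were over 0.1, and 16 correlated best with their own number. Of the 8 pairs of macrophages and monocytes of one tumor, 6 correlated best with their own number and 3 were over 0.1 (-0.03 to 0.15), so pairing there is possible. With the replicate block, Psmb9 in MC38 supernatant against control lost its call (0.32, adjusted p = 0.0646), Psmb9 in MC38 macrophages gained one (adjusted p = 0.0412), and no other call of the members changed.

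Over all genes, calls in MC38 against LLC spleen were 3755, but 944 with only the groups compared, 22 without the foreign-transcript libraries and 6640 without MC38 spleen replicate 4; the difference between tumors from spleen had 5661, and 3600 without those libraries. The share of calls that were higher in MC38 spleen was 50.7%, and 62.1% under RLE and 66.8% under upper quartile scaling; under the latter it was 58.1% against 47.1% for MC38 and 66.1% against 52.6% for LLC macrophages. Upper quartile scaling moved the median of all genes by -0.137 in TuMon1 against MC38 spleen. Counting error was not compared with the spread between libraries.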
